A study of Mus musculus with 6 samples.

Results

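The stem cell BAF remodeller genes described here are 9 genes: Smarca4, Smarcb1, Smarcc1, Smarcd1, Smarce1, Arid1a, Arid1b, Dpf2 and Brd9. Their accessible regions were chosen by position alone, as those with a midpoint inside a gene or within 50 kb of its annotated limits on the mm10 assembly, and they number 114 of the 69689 regions in the deposited table. No region was shared between members. Chromatin accessibility was profiled by ACC-seq, an assay that uses Tn5 transposase to tag open DNA, in 6 libraries of wild-type mouse embryonic stem cells of the R1 line. The Fix, 1,6-Hex group (2 libraries) was exposed to 10% (w/v) 1,6-hexanediol for 30 s, which disperses many condensates held by weak hydrophobic contacts, and then fixed in 1% formaldehyde for 10 min with the alcohol still present. The Fix group (2 libraries) had the same formaldehyde step without the alcohol, and the Fresh group (2 libraries) was not fixed. Tagmentation ran for 30 min at 55 °C in both fixed groups and at 37 °C in the Fresh group. All cells were cultured over fibroblast feeders with serum, LIF and inhibitors, and feeders were depleted by replating. All cells are of 1 line. The series asks how accessibility responds to a change in condensates, but the table gives each region's position and the name of 1 of 9 clusters, with no value for any library. Depth is therefore unknown, no contrast between the groups could be run, and the meaning of each cluster in terms of the 3 groups is not stated in any source used here. All values below are descriptions of position, width and cluster name, and none carries a test.

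BAF complexes, the mammalian SWI/SNF family, use ATP to slide or evict nucleosomes and so open DNA at promoters and enhancers. Embryonic stem cells are known for a form built around the ATPase BRG1 (Smarca4) and the scaffold BAF155 (Smarcc1), and loss of BRG1 or ARID1A impairs their self-renewal. Subunits are shared among canonical BAF, which has an ARID1 subunit and DPF2, polybromo BAF, and non-canonical BAF, which has BRD9 and lacks SMARCB1, SMARCE1 and ARID1 proteins.

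The promoters of the members lay inside accessible regions of 4 different clusters, and 7 of them are printed to show the sequence that each cluster name covers. Each is the 300 bases from 250 before to 50 after a start site listed by RefSeq (GRCm38.p6, the mm10 assembly), written 5′ to 3′ on the strand of the gene. Capitals mark matches, on either strand, to GGGCGG (the GC box), CCAAT (the CCAAT box), GCATGCG (the core of NRF1 sites), ATGGCGG (the core of YY1 sites), CACGTG (an E-box), CGGAAG (an ETS site core) and TATAAA (the TATA box). Smarca4 (chr9:21615919-21616218, plus strand) lay in a cluster 3 region. Smarcb1 (chr10:75921565-75921864, minus strand) and Smarcc1 (chr9:110131774-110132073, plus strand) lay in cluster 4. Dpf2 (chr19:5912822-5913121, minus strand) and the outer start of Arid1a (chr4:133756720-133757019, minus strand) lay in cluster 8. The inner start of Arid1a (chr4:133753936-133754235, minus strand) and Arid1b (chr17:4994824-4995123, plus strand) lay in cluster 1. Both of these cluster 1 windows lie wholly inside the annotated limits of their genes. They may therefore hold transcribed or coding sequence, which was not tested.
Smarca4: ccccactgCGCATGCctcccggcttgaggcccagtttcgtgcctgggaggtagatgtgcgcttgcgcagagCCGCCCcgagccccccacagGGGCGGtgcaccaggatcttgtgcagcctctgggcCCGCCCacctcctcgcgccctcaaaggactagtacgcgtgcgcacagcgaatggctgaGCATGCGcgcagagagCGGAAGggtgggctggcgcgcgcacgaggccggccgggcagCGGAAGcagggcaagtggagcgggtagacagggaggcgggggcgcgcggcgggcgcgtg
Smarcb1: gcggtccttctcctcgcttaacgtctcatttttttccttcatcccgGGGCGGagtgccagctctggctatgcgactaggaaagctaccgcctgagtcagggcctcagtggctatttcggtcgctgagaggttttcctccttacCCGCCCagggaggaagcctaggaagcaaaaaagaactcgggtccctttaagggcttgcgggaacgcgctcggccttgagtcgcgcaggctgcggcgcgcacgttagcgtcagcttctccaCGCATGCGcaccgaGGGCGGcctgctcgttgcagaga
Smarcc1: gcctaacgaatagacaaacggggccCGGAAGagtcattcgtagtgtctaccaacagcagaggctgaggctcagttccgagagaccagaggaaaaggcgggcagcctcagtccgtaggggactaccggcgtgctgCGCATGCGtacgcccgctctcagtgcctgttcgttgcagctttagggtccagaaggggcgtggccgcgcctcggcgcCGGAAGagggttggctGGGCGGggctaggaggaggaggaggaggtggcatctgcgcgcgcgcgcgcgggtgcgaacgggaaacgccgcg
Dpf2: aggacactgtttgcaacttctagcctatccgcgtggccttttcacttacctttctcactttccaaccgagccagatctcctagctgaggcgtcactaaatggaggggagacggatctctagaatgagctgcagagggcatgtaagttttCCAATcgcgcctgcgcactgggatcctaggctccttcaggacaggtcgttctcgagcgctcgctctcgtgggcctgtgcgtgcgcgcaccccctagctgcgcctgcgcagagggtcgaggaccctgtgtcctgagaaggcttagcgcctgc
Arid1a, outer start: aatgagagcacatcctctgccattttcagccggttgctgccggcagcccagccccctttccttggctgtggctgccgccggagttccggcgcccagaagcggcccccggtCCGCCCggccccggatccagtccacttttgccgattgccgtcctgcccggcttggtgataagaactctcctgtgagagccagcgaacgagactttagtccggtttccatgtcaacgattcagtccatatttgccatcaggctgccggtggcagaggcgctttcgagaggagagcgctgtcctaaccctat
Arid1a, inner start: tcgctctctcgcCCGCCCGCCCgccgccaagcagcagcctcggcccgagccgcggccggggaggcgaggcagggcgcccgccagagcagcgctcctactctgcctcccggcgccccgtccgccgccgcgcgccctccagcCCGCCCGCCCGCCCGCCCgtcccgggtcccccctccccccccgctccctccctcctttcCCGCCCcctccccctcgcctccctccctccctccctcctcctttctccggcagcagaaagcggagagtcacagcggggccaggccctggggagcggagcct
Arid1b: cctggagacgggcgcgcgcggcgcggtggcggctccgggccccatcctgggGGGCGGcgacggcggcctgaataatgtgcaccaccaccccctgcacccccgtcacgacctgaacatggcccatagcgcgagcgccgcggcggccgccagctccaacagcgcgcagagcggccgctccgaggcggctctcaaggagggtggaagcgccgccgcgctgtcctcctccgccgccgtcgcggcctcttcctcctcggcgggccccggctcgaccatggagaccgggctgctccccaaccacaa

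Every member with a listed start site had that site inside an accessible region, together with the whole promoter window. The 8 members with a RefSeq promoter entry (no entry was matched for Smarce1) all had a start covered, against 61.4% of the 17492 protein-coding genes with an entry. All 300 bases lay inside the region for each of the 10 member entries. By the midpoint, 8 of 9 members had a region within 1 kb of a gene limit, called a gene end here, against 60.9% of 21887 protein-coding genes. The exception was Arid1b, whose start region had its midpoint 1.39 kb inside the gene. That region, of cluster 1 and 3436 bp wide, still covered the gene limit, and its midpoint lay 611 bp past the listed start. Of the 13321 genes with a gene-end region, 13.5% had one of cluster 4 (4 members), 24.1% of cluster 8 (Smarce1, Arid1a and Dpf2), 14.3% of cluster 3 (Smarca4) and 10.4% of cluster 9 (the far end of Smarcb1). No member had one of clusters 1, 2, 5, 6 or 7 by midpoint, against 21.6%, 9.63%, 4.89%, 6.70% and 5.68%. All 9 members had at least 1 region in the gene or its 50 kb flanks, against 88.1% of genes.

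Cluster 4 held the starts of 4 of the 8 members, Smarcb1, Smarcc1, Smarcd1 and Brd9, against 15.0% of the 10740 protein-coding genes with a covered start. Cluster 8 held those of 2 (Dpf2 and the outer start of Arid1a), against 24.6%, and cluster 1 those of 2 (Arid1b and the inner start of Arid1a), against 18.1%. Cluster 3 held 1, that of Smarca4, against 15.7%. Clusters 2, 5, 6, 7 and 9 held no member start, against 10.5%, 4.93%, 6.04%, 2.97% and 5.12% of genes. With 8 genes, these counts are small and no difference from other genes is claimed.

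**Figure D1:**
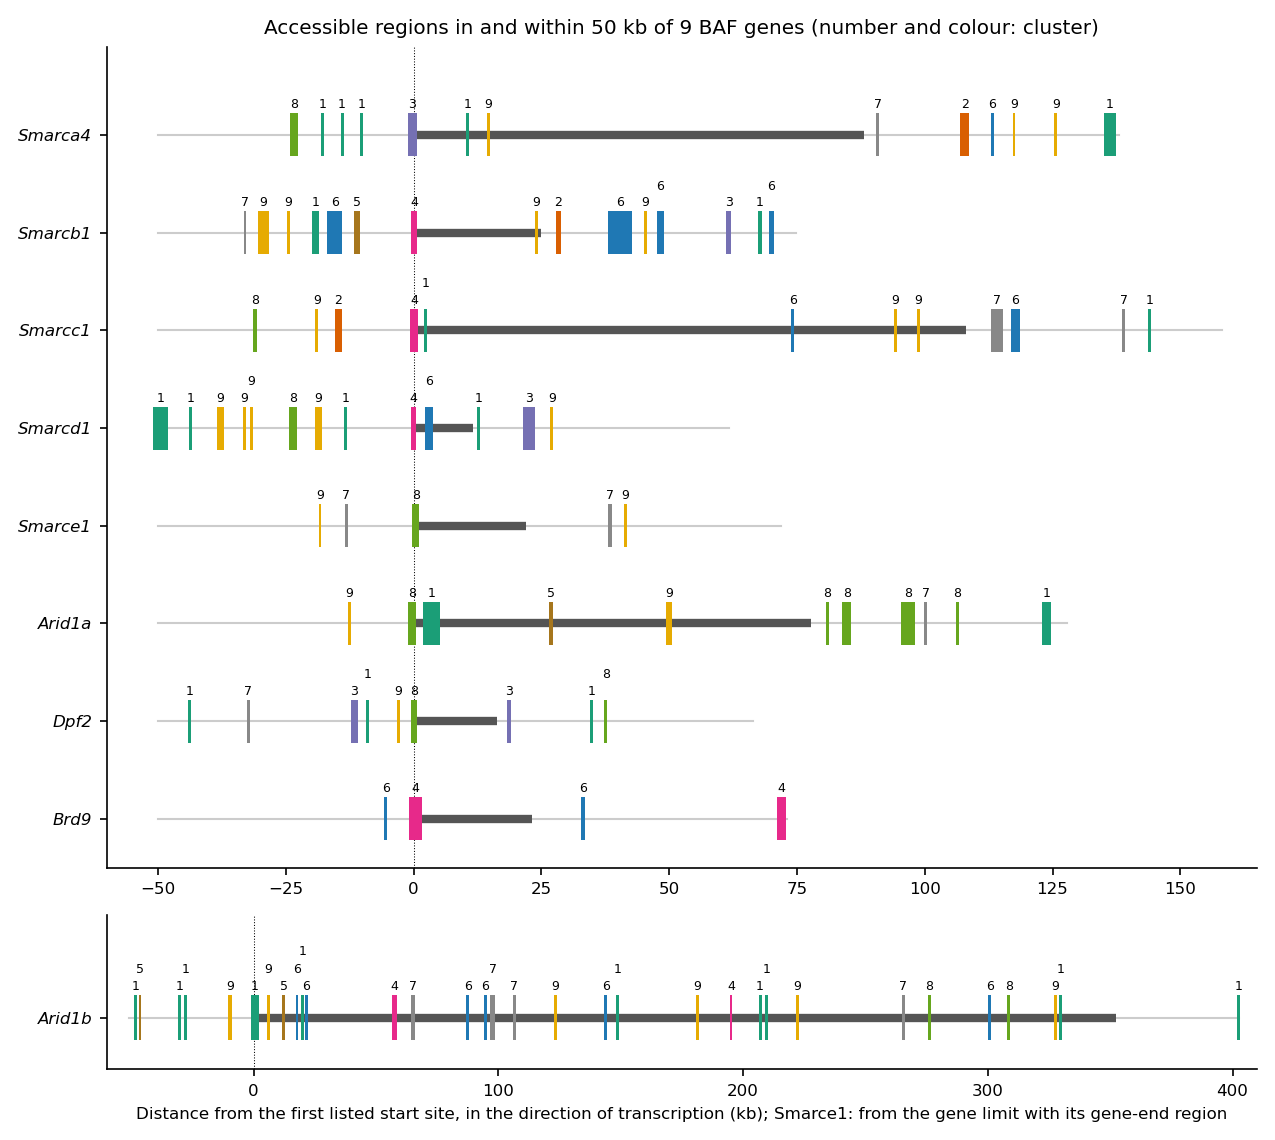
Accessible regions (coloured bars, with the cluster number above) along each BAF gene (dark line) and its 50 kb flanks (pale line), by distance from the first listed start in kb. Narrow regions are drawn at a least width so as to be visible, and Smarce1 is drawn from its upper limit with lower coordinates to the right. A region stands at distance 0 of all 9 genes, while beyond it 2 regions lie in the body of Smarca4 and 25 in that of Arid1b.

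Smarca4 encodes BRG1, the ATPase that drives the complex. The gene (chromosome 9, 21616106 to 21704230, 88.1 kb) had 13 regions. Its start lay in a cluster 3 region of 1782 bp (21615010 to 21616791), wider than 76.2% of the cluster 3 regions that cover a start of any protein-coding gene. Inside the gene there were 2 further regions, 1 of cluster 1 with 431 bp and 1 of cluster 9 with 387 bp, both in the first 15 kb (midpoints 10597 and 14706 bp from the start). The longest stretch of the gene without a region was 73.2 kb. Upstream, 3 cluster 1 regions of 517, 501 and 249 bp lay 10.1, 13.9 and 17.7 kb from the gene, followed by a 1577 bp cluster 8 region that covered the starts of Yipf2 and Timm29. Downstream lay 6 regions, and the one closest to the gene was a cluster 7 region of 456 bp at 2.74 kb.

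Of the 4 scaffold and core subunits, Smarcc1, Smarcb1 and Smarcd1 shared a cluster at their starts. Smarcc1 encodes BAF155, the scaffold around which the core module assembles (chromosome 9, 110132024 to 110240178, 108 kb). Its cluster 4 start region was 1499 bp wide (110131426 to 110132924), wider than 58.3% of cluster 4 start regions. A cluster 1 region of 353 bp lay 2331 bp into the gene, and the next region, of cluster 6 and 452 bp, lay 74182 bp from the start, so that 71.4 kb held none. The other 2 inside the gene were cluster 9 regions of 242 and 393 bp. Of its 12 regions, 3 lay nearest to Dhx30, an RNA helicase gene, and 4 nearest to Cspg5, a neural proteoglycan gene. Those nearest to Cspg5 included a cluster 7 region of 2512 bp, wider than 98.9% of cluster 7 regions.

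Smarcb1 encodes BAF47 (also SNF5), which docks the complex on the nucleosome's acidic patch and is a tumour suppressor. The gene (chromosome 10, 75896769 to 75921614, 24.8 kb) had 15 regions from 8 of the 9 clusters, with cluster 8 (9.04% of all regions) absent. The start lay in a cluster 4 region of 1148 bp (75920941 to 75922088), and a cluster 9 region of 313 bp lay 0.746 kb from the opposite gene limit. The 23.3 kb between them held no region. Most of the rest belonged to a gene-dense neighbourhood: 13 of 15 regions lay nearer to another protein-coding gene, among them Mif, a cytokine gene, with 5. The widest region near any member was here, a cluster 6 region of 4689 bp (75878906 to 75883594) that lay 15.5 kb beyond the Smarcb1 end and nearer to Derl3. Another cluster 6 region, of 2939 bp, lay 15.4 kb upstream, nearest to Chchd10. Cluster 6 made up 4 of the 15 regions, against 12.7% of all regions. Those 4 had widths of 840, 1281, 4689 and 2939 bp.

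Smarcd1 encodes BAF60A, a core subunit that bridges the complex to transcription factors. It was the shortest member (chromosome 15, 99702287 to 99713995, 11.7 kb) and had 13 regions. The cluster 4 region at the start was 1096 bp wide (99701729 to 99702824), with its midpoint 11 bp upstream of the start. A cluster 6 region of 1551 bp followed at 2977 bp inside the gene, and a cluster 1 region of 452 bp lay 1.06 kb beyond the end. Upstream lay 9 regions by midpoint, the start region among them, and 6 of the 9 were nearest to Asic1, an acid-sensing ion channel gene. Cluster 9 was the most frequent around Smarcd1, with 5 of 13, against 26.2% of all regions. The cluster 9 regions were 1223, 545, 358, 1548 and 295 bp wide, and 2 of them were wider than 94.8% and 97.3% of all cluster 9 regions.

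Smarce1 encodes BAF57, a core subunit with an HMG box that binds DNA. The gene (chromosome 11, 99209047 to 99231017, 22.0 kb) lay beside keratin genes and had 5 regions. A cluster 8 region of 1240 bp (99229986 to 99231225) covered its upper limit. The remaining 4, of clusters 7 and 9, were 200 to 671 bp wide and lay 13.2 to 19.5 kb from the gene. No region lay in the other 20.9 kb of the gene, and 3 clusters were present in all.

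Arid1a encodes BAF250A, the large ARID subunit that defines canonical BAF. It had 2 listed starts, at 133756769 and 133753985, in separate regions of different clusters. The gene (chromosome 4, 133679008 to 133756769, 77.8 kb) had its outer start in a cluster 8 region of 1396 bp (133756382 to 133757777) and its inner start in a cluster 1 region of 3335 bp (133751566 to 133754900). The cluster 1 region was wider than 94.2% of cluster 1 start regions, and the cluster 8 region wider than 69.7% of cluster 8 start regions. Of the 2 members with more than 1 listed start, Arid1a and Brd9, 1 had its starts in separate regions, against 13.3% of 2761 such genes. Where starts were in separate regions, they differed in cluster at 84.5% of 367 genes, as at Arid1a. Cluster 8 was the most frequent around Arid1a, with 5 of 11 regions, against 9.04% of all regions. Of these 5, 4 lay nearest to Pigv, a gene of GPI anchor synthesis. Those 4 were 730, 2656, 1886 and 525 bp wide.

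Arid1b encodes BAF250B, the alternative ARID subunit to BAF250A. It was the longest member (chromosome 17, 4994297 to 5347656, 353 kb), longer than 98.0% of protein-coding genes, and held 26 of its 32 regions inside the gene. The start lay in a cluster 1 region of 3436 bp (4993968 to 4997403), wider than 95.2% of cluster 1 start regions. The 26 regions inside comprised 6 of cluster 1, 6 of cluster 6, 5 of cluster 9, 4 of cluster 7, 2 each of clusters 4 and 8, and 1 of cluster 5. Clusters 2 and 3, which held only 2.27% and 3.61% of all regions, were absent. Both cluster 4 regions lay far from the start, at 57633 bp (2113 bp wide) and 195059 bp (1135 bp wide), whereas the other 5 cluster 4 regions near members each covered a protein-coding start. After the start region, the next 5 in the gene were of clusters 9, 5, 6, 1 and 6 and lay 6004 to 21515 bp from the start. Another 5 lay 87504 to 123264 bp from it, of clusters 6, 6, 7, 7 and 9, with the widest at 2425 bp. No other protein-coding gene lay within 50 kb, and 31 of 32 regions had Arid1b as the nearest one.

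Dpf2 encodes BAF45D, a reader of acetylated histones that belongs to canonical BAF. The gene (chromosome 19, 5896516 to 5912871, 16.4 kb) had 9 regions, and its start lay in a cluster 8 region of 1065 bp (5912288 to 5913352), wider than 49.0% of cluster 8 start regions. No other region lay inside the gene. Of the remaining 8, all were nearest to another gene, and 4 covered the start of one. These were cluster 3 regions of 694 bp at Tigd3 and 1383 bp at Cdc42ep2, with 640 bp of cluster 1 at Slc25a45 and 618 bp of cluster 8 at Frmd8.

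Brd9 encodes the bromodomain subunit that defines non-canonical BAF. It had the fewest regions, 4, and the lowest density of the members. The gene (chromosome 13, 73937801 to 73960895, 23.1 kb) starts 5 bp beyond the limit of Trip13, a checkpoint ATPase gene on the opposite strand. A single cluster 4 region of 2438 bp (73936948 to 73939385) covered the starts of both, and was wider than 87.8% of cluster 4 start regions. The rest of the gene, 21.5 kb, held no region. A cluster 6 region of 586 bp lay 5.44 kb away on the Trip13 side. On the other side were 889 bp of cluster 6 at 10.1 kb and 1693 bp of cluster 4 over the Tppp start at 48.9 kb.

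**Figure D2:**
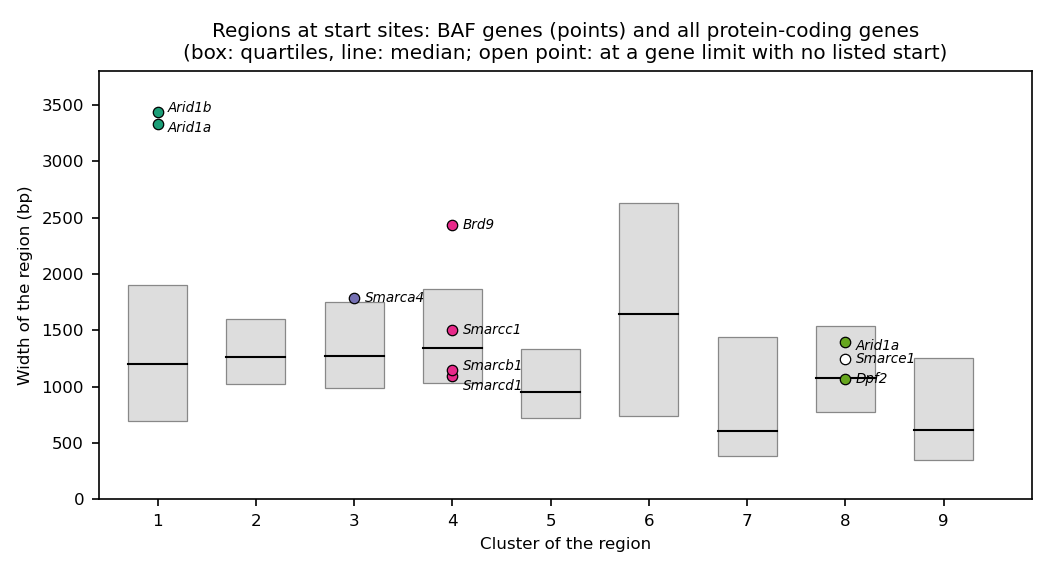
Width in bp of the region over each BAF start site (points) by cluster, with the quartiles (boxes) and median (line) of all regions that cover a start of a protein-coding gene. The cluster 1 regions of Arid1b (3436 bp) and Arid1a (3335 bp), the cluster 4 region of Brd9 (2438 bp) and the cluster 3 region of Smarca4 (1782 bp) lie above the boxes of their clusters, and the open point is the Smarce1 region, at a gene limit with no listed start.

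The regions at the members' own starts were 1065 to 3436 bp wide, with a median of 1499 bp over 9 regions, against 1176.5 bp over the 10240 regions that cover a protein-coding start anywhere. By cluster the medians of such regions over all genes were 1202 bp (cluster 1), 1267.5 bp (cluster 3), 1343 bp (cluster 4) and 1075 bp (cluster 8). Of the members, Smarcb1, Smarcd1 and Dpf2 lay under the median of their own cluster and the other starts over it. All 114 regions had a median width of 647.5 bp (range 200 to 4689), against 490 bp for regions within 50 kb of any protein-coding gene and 474 bp for all regions. The share that covered a protein-coding start also differed, at 21.9%, against 16.7% and 14.7%. The 88 that covered no listed start and no member limit had a median of 482.5 bp. For all regions that cover no protein-coding start it was 418 bp. Cluster 6 regions near the members had a median of 842 bp, against 583 bp for cluster 6 as a whole, and cluster 7 regions 516.5 bp, against 345 bp. Those of clusters 3, 4, 8 and 9 also had higher medians near the members. Cluster 1 regions had a lower one, at 479 bp, against 496 bp, as did those of cluster 2 (1229 bp, against 1243.5 bp) and cluster 5 (791 bp, against 817 bp). Regions of 3 kb or more numbered 3 (2.63%, against 1414 of the 61363 regions near any protein-coding gene and 2.10% of all regions): the cluster 6 region near Smarcb1 and the cluster 1 start regions of Arid1a and Arid1b.

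Over all 114 regions, cluster 1 was the most frequent with 28 (24.6%, exact binomial 95% CI 17.0 to 33.5), against 19.6% of the 61363 regions within 50 kb of any protein-coding gene and 18.7% of all regions. Cluster 9 followed with 26 (22.8%, CI 15.5 to 31.6), against 25.6% and 26.2%. Cluster 6 had 16 (14.0%, against 12.1% and 12.7%), cluster 8 had 13 (11.4%, against 9.77% and 9.04%) and cluster 7 had 12 (10.5%, CI 5.56 to 17.7, against 18.1% and 18.9%). Cluster 4 had 7 (6.14%, against 3.78% and 3.47%), cluster 3 had 5 (4.39%, against 3.95% and 3.61%), cluster 5 had 4 (3.51%, against 4.72% and 5.06%) and cluster 2 had 3 (2.63%, against 2.45% and 2.27%). The share of all regions lay inside the interval for every cluster but cluster 7. These intervals cover counting error only and treat neighbouring regions as independent. They are therefore too narrow, and 9 clusters were looked at, so cluster 7 is not taken to differ.

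**Figure D3:**
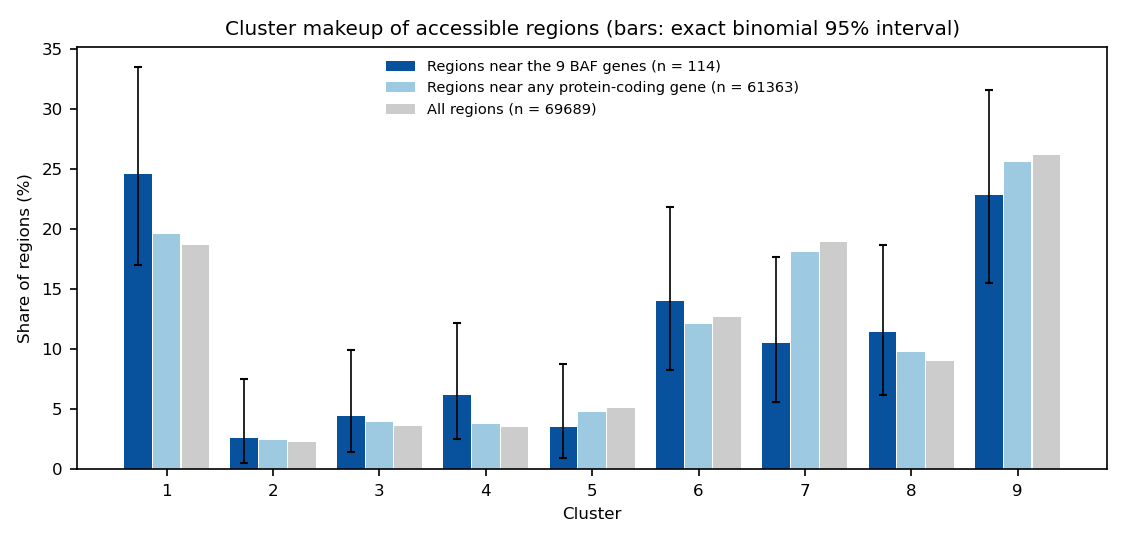
Share of regions in each cluster (%), for regions near the 9 BAF genes (dark bars, n = 114, with exact binomial 95% intervals), regions near any protein-coding gene (light blue, n = 61363) and all regions (grey, n = 69689). Clusters 1 (24.6%) and 9 (22.8%) are the tallest dark bars, and cluster 7 (10.5%) is the one whose interval does not reach the grey bar (18.9%).

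Around the members, the clusters differed in how often their regions covered a start. Of the 114 regions, 9 lay at gene ends, 36 in gene bodies and 69 in the flanks. A start of a protein-coding gene was covered by 25 regions (21.9%, against 16.7% of regions within 50 kb of any protein-coding gene and 14.7% of all regions), of which 9 covered a member's own start and 16 only that of a neighbour. All 5 cluster 3 regions, 5 of 7 cluster 4 regions and 6 of 13 cluster 8 regions covered such a start, while none of the 16 cluster 6, 12 cluster 7 or 26 cluster 9 regions did. Of all regions in the table, 59.5% of cluster 3, 58.6% of cluster 4 and 39.5% of cluster 8 covered one, as did 7.03% of cluster 6, 2.39% of cluster 7 and 3.00% of cluster 9. The 88 regions that covered neither a listed start nor a member limit belonged to cluster 9 (26, 29.5%), cluster 1 (22 of the 88), cluster 6 (16, 18.2%), cluster 7 (12, 13.6%), cluster 8 (6, 6.82%), cluster 5 (3, 3.41%), cluster 4 (2, 2.27%) and cluster 2 (1, 1.14%). For all regions in the table that cover no protein-coding start, the shares were 29.8%, 18.7%, 13.8%, 21.7%, 6.41%, 5.11%, 1.68% and 1.07% in the same order of clusters.

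The members differed in density. Counted in each gene with its 50 kb flanks, it was 12.0 regions per 100 kb for Smarcb1 and 11.6 for Smarcd1, more than at 91.3% and 90.0% of protein-coding genes. Values of 7.73 for Dpf2, 7.06 for Arid1b, 6.91 for Smarca4, 6.19 for Arid1a and 5.76 for Smarcc1 followed. Smarce1 had 4.10 and Brd9 3.25, less than the median of 4.74 over all protein-coding genes. The 32 regions of Arid1b exceeded the count at 99.7% of genes, but per 100 kb it exceeded 66.9% of them. At 7 of the 9 members most regions lay nearest to a neighbour: 13 of 15 at Smarcb1, 10 of 13 at Smarcd1, 8 of 9 at Dpf2, 3 of 4 at Brd9, 8 of 13 at Smarca4, 7 of 12 at Smarcc1 and 6 of 11 at Arid1a. Density there describes the neighbourhood as much as the member. Over the 9 members, 56 of 114 regions had the member as the nearest protein-coding gene, and 31 of those 56 were at Arid1b.

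**Figure D4:**
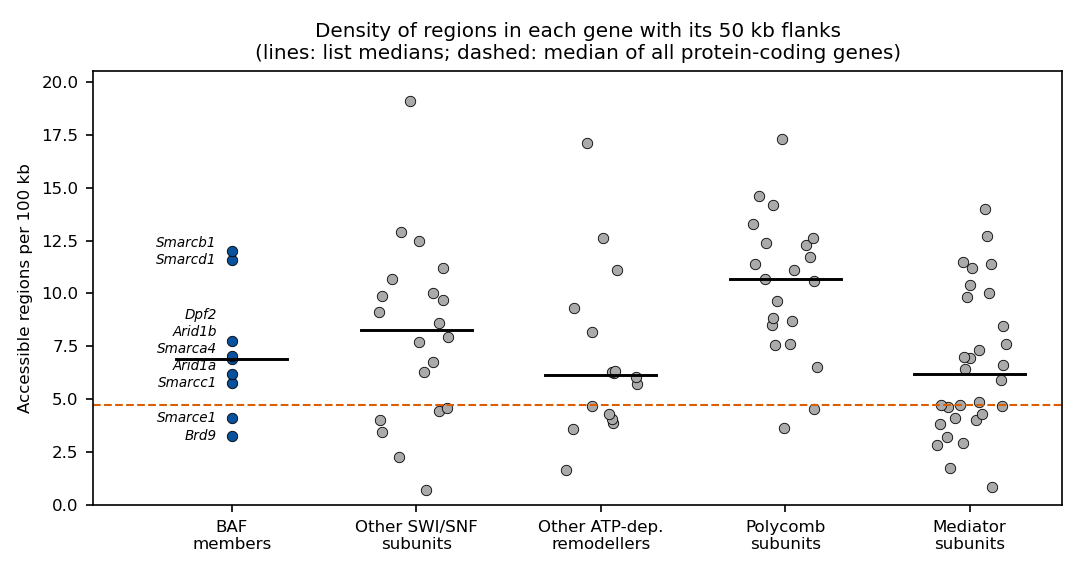
Accessible regions per 100 kb in each gene with its 50 kb flanks, for the 9 BAF members (named blue points) and 4 other lists (grey points), with list medians (solid lines; names are spaced to be legible, in order of the points) and the median over all protein-coding genes (dashed line, 4.74). Smarcb1 (12.0) and Smarcd1 (11.6) stand above the other 7 members, and Smarce1 (4.10) and Brd9 (3.25) lie under the dashed line.

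The promoters of the members were rich in CpG. In the 300 bases, CpG dinucleotides numbered 42 at Arid1b, 40 and 39 at both starts of Brd9, 36 at the inner start of Arid1a, 35 at Smarcd1, 33 at Smarca4 and at Smarcc1, 27 at Smarcb1, 22 at the outer start of Arid1a and 20 at Dpf2. The windows of Arid1b and of the inner start of Arid1a lay inside the annotated genes, so their counts may include coding sequence, which was not tested. The median over 12597 covered protein-coding promoters was 22, and over 8666 uncovered ones it was 3. The 2 starts of Arid1a differed in composition as well as in cluster, with 61.3% G or C at the outer start and 79.7% at the inner one. The lowest counts were those of the promoters in cluster 8 regions, Dpf2 and the outer start of Arid1a, but over all genes the median was 22 in cluster 8 and 24 in clusters 3 and 4.

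**Figure D5:**
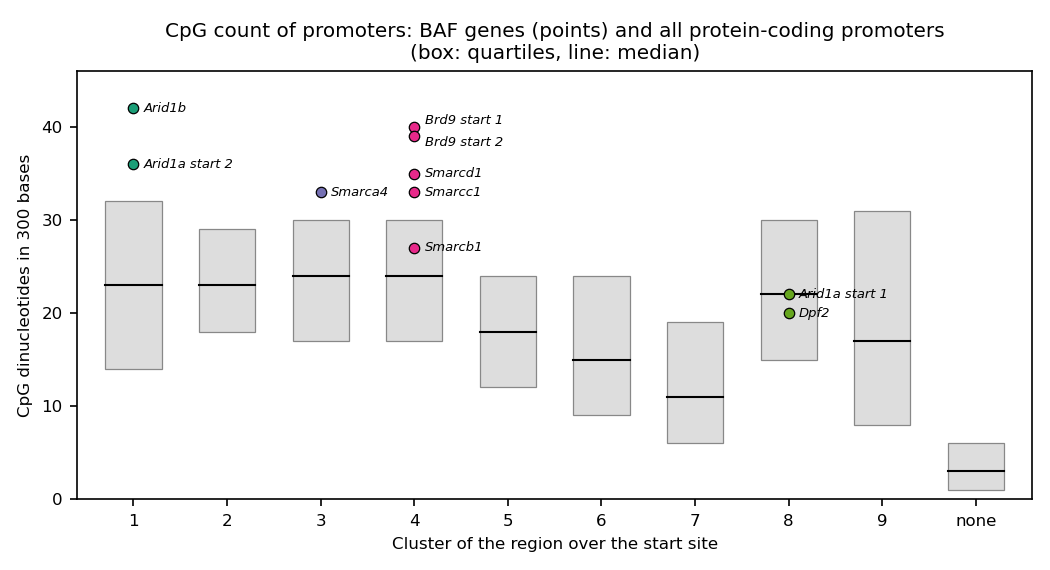
CpG dinucleotides in the 300 bases around each BAF start (points) by the cluster of the region over the start, with the quartiles (boxes) and median (line) of all protein-coding promoters; "none" means no region over the start, and Arid1a start 1 is the outer one. The 10 member entries run from 20 at Dpf2 to 42 at Arid1b, all above the upper quartile of uncovered promoters (6). The windows of Arid1b and of the inner start of Arid1a lie inside the annotated genes and may include coding sequence.

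Short motifs were searched on both strands of these promoters. The GC box was present in 9 of the 10 member entries, all but that of Dpf2, against 35.7% of 32851 promoters of all genes and 69.1% of covered protein-coding promoters. The inner start of Arid1a had 7 matches, 2 and 4 of them in overlapping runs, and its outer start had 1. The NRF1 core was present in 3 of 10, those of Smarca4, Smarcb1 and Smarcc1, against 3.58% and 6.64%. At Smarcb1 and Smarcc1 its 2 matches overlapped on opposite strands, while at Smarca4 they lay apart. The ETS core was present at Smarca4, at Smarcc1 and in both entries of Brd9 (4 of 10, against 16.9% and 31.4%), the YY1 core at Smarcd1 (1 of 10, against 4.05% and 8.12%), 35 bases past the start, and the CCAAT box at Dpf2 (1 of 10, against 37.4% and 38.5%). The E-box and TATA box were in none of the 10, against 7.15% and 13.6% of promoters of all genes and 10.4% and 5.91% of covered ones. A match is only the presence of these letters, and the windows of Arid1b and of the inner start of Arid1a may include coding sequence. The entries of Brd9 overlap and share their matches.

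The other 20 SWI/SNF subunit genes were measured the same way. A gene-end region was present at 16 of 20 (80.0%, against 60.9% of protein-coding genes). Of the 14 with a promoter entry, 13 had a covered start, all but Smarcd2, against 61.4% of protein-coding genes with an entry. Those 13 starts lay in cluster 1 (3 genes), cluster 8 (3), cluster 3 (2), cluster 9 (2) and clusters 2, 5 and 6 (1 each). Cluster 4 held 0 of the 13 and 4 of the 8 member starts, against 15.0% of protein-coding genes with a covered start. In the lists below, it held 2 of 10 starts of other ATP-dependent remodellers, 2 of 18 of Polycomb and 5 of 26 of Mediator subunits. These counts are small, and no difference between the lists is claimed. By list order, the first with a gene-end region are given with the cluster of that region, which can differ from that of the start. Smarcc2 (BAF170, the paralogue of BAF155) was in cluster 1 and Smarcd2 in cluster 2. Smarcd3 was in cluster 7, with its start in cluster 8, and Actl6a, an actin-like core subunit, in cluster 2. The following were named after their values were seen. Smarca2, which encodes the alternative ATPase BRM, had 2 regions (0.732 per 100 kb, start in cluster 1), against 13 (6.91) at Smarca4. The polybromo BAF genes Pbrm1 (start in cluster 6), Phf10 and Brd7 (both in cluster 9) had 9, 4 and 3 regions (4.45, 3.44 and 2.27 per 100 kb). Arid2, the ARID subunit of that complex, had 10 (4.59). The non-canonical BAF genes Bicra and Bicral, both longer than Brd9, had 19 and 24 regions (10.7 and 12.5 per 100 kb), against 4 (3.25) at Brd9. Among paralogues of Dpf2 (9 regions, 7.73 per 100 kb), Dpf1 had 11 (9.68) and Dpf3, a longer gene, 15 (4.01).

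Most other chromatin and transcription genes measured had a covered start too, as did 61.4% of protein-coding genes with an entry. A gene-end region was present at 60.9% of protein-coding genes. Among 16 other ATP-dependent remodellers, 14 had a gene-end region and 10 of 11 a covered start. Cluster 3 held 4 of these starts, against 15.7% of protein-coding genes with a covered start. The first genes by list order were Smarca5 (cluster 3), Smarca1 (cluster 1), Baz1b (clusters 3 and 5) and Bptf (cluster 1) at gene ends. All 21 Polycomb subunit genes had a gene-end region and 18 of 18 a covered start, with Ezh2 and Eed in cluster 3, Suz12 in cluster 4 and Ezh1 in clusters 8 and 9 at gene ends. Of 30 Mediator subunit genes, 29 had a gene-end region and 26 of 26 a covered start. Cluster 8 held 8 of the Mediator starts, cluster 2 held 6 and cluster 4 held 5, against 24.6%, 10.5% and 15.0% of genes. The first genes were Med1 (cluster 2), Med4 (cluster 8), Med6 (cluster 5) and Med7 (cluster 4) at gene ends. The median density was 6.91 regions per 100 kb for the 9 members, against 8.27, 6.14, 10.7 and 6.17 for the 4 lists in the order given. These ranges overlapped, at 3.25 to 12.0 for the members and 3.64 to 17.3 for the Polycomb list.

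The 50 kb limit left some nearby regions out. The region closest to it from inside was the cluster 1 region of 513 bp beyond Arid1b, at 49964 bp, and the closest from outside was a cluster 4 region of 12229 bp that lay 50703 bp from Dpf2 and overlapped Neat1, a nuclear RNA gene, and Frmd8. As a check of the cell type, a gene-end region was present at 4 of 4 stem cell genes (Nanog, Pou5f1, Sox2 and Esrrb), against 60.9% of protein-coding genes. It was also present at 4 of 4 fibroblast genes (Col1a1, Col1a2, Thy1 and Pdgfrb), so regions at gene ends do not separate stem cells from feeder cells, whose part in these regions was not tested.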

How the data were processed

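Per the submitters' processing notes, the tools were Bowtie2 2.3.3.1, cutadapt 1.18, SAMtools 1.6 and Picard, and the build mm10. Callers and clustering methods are not given in the sources used here. A table deposited by the authors covers the whole series and gives chromosome, start, end and cluster name for each region, with no value per library, so the planned fits between groups were not run. Starts, which count from 0 in the deposited table, were raised by 1.

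Midpoints of regions were set against the limits of 21887 protein-coding genes (RefSeq, GRCm38.p6). Start sites, strands and promoter sequences came from a RefSeq table with 32851 entries, which is not complete. Exons, introns and UTRs were not used here. A region covered a start when the start lay within it. Density is the number of regions per 100 kb of gene plus flanks. Intervals are exact binomial (Clopper-Pearson, 95%). The members and the other lists were chosen with earlier results of these data known. The genes named are all 9 members and, in each of 4 other lists (87 genes), the first 4 as listed that had a gene-end region. Others are marked as named after their values were seen. A neighbouring locus is not reported here. Placement was tested on simulated data with known distances. Alternatives were flanks of 20 and 100 kb, any overlap, the nearest gene only, leaving out Arid1b, other gene-end windows and all annotated genes. Scripts ran in Python 3.11.15 with SciPy 1.17.1, pandas 2.3.3, matplotlib 3.10.9 and numpy 2.4.6.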

Additional observations from a re-analysis of the deposited data

How the results depend on the processing

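With flanks of 100 kb there were 188 regions near the members, and 56 when a region had to have the member as its nearest protein-coding gene, against 114 as reported. Of 54 cluster shares recomputed under 6 settings, 52 lay inside the 95% interval of the reported share. The exceptions were cluster 2 with the nearest gene only (0%, against 2.63%) and cluster 3 without regions that cover a neighbour's start (1.02%, against 4.39%), a setting added after seeing the data. Each setting keeps part of the same 114 regions or adds to them, and the intervals are wide. The count of shares inside them is therefore a loose check. Median widths of 533 to 688 bp lay within 366 bp (SD of the members' medians) of 647.5 bp. That margin is wide, as the 474 bp median of all regions lies within it too, so it is a loose check. A gene-end region was present at 8 members with a window of 500 bp (49.3% of all genes), at 9 with 2.5 kb (69.8%) and at 9 with any overlap (65.7%), against 8 (60.9%) as reported. Cluster 9 had 0 members at 500 bp and 1 as reported. At 2.5 kb, cluster 1 had 3 (Smarcc1, Smarcd1 and Arid1b), against 0, and cluster 3 had 2, against 1. Clusters 4 and 8 had 4 and 3 at all 3 windows. Over all annotated genes the background was 37.6%, against 60.9%. All 8 members with a listed start also passed with a midpoint within 1 kb of it. No paired analysis was possible because the table holds no value per library, and for the same reason no library could be left out and what depth limits is unknown.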
